A study of Mus musculus with 8 samples.

Results

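The retinoid genes described here are those that make or break down retinoic acid, or that bind or take up retinoic acid or retinol. They are the aldehyde dehydrogenases Aldh1a1, Aldh1a2 and Aldh1a3, the hydroxylases Cyp26a1 and Cyp26b1, the carriers Rbp4, Crabp2 and Fabp5, and the receptor Stra6. Members were all probe sets whose platform symbol was one of these 9 genes. This gave 10 probe sets for 8 of the genes, of 28000 probe sets in the table, 23579 of which name a single gene (13120 genes), and all 10 passed the filter on low signals. No probe set could be matched to Stra6, the membrane receptor that takes up retinol, so it was not analysed here. The data are Affymetrix mouse 430 2.0 arrays of uterine RNA from gravid mice at gestational d18.0, with a single mouse on each of 8 arrays. The study compared a mouse model of delayed parturition with normal mice to find uterine genes with a part in labor. The 4 wild-type females were C57BL/6. The 4 Cox-1 KO females lacked cyclooxygenase-1, encoded by Ptgs1, and were a cross of C57BL/6 with 129 (Sv129 in the labels, 129P2 in the methods), so strain and genotype cannot be told apart. The labels give an age of 6 to 16 weeks for both groups, while the methods give 8 to 16 weeks. Fetuses, fetal membranes and placentas had been removed before RNA was isolated.

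Retinol reaches tissues on the plasma carrier RBP4 and is oxidized to retinaldehyde by retinol dehydrogenases. The ALDH1A enzymes then oxidize retinaldehyde to retinoic acid, the step that sets where the ligand is made. Inside the cell CRABP2 carries retinoic acid to its nuclear receptors, while FABP5, a fatty acid binding protein, can carry it to PPARδ. The CYP26 enzymes end the signal by hydroxylation, and Cyp26a1 is itself a classical target of retinoic acid through its promoter. In the uterus the pathway is known for its regulation by ovarian steroids and for its part in implantation and decidualization.

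Because Cyp26a1 differed most of the 8 genes, the 250 bases before its annotated start are shown with those of Cyp26b1, the other hydroxylase, whose mean signal differed in the opposite direction. Sequences are from RefSeq (GRCm38.p6), 5′ to 3′ on the strand of the gene, at chr19:37697558-37697807 (+) for Cyp26a1 and chr6:84593811-84594060 (-) for Cyp26b1. Capitals mark a direct repeat of retinoic acid receptor half-sites.
Cyp26a1: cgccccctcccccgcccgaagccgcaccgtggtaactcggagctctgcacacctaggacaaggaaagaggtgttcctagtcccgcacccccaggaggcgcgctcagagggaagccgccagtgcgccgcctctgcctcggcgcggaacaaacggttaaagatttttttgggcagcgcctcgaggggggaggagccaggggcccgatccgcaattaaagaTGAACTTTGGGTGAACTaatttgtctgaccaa
Cyp26b1: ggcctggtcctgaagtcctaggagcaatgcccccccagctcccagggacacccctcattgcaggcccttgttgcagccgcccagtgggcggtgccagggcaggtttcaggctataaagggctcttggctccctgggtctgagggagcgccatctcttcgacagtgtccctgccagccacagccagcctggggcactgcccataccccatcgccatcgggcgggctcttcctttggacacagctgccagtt
A half-site was A or G followed by either GGTCA or by GTTCA, and half-sites were paired freely on both strands with 1, 2 or 5 bases between them. The Cyp26a1 window held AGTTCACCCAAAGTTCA on the opposite strand at positions -32 to -16 from the annotated start, with 5 bases between the half-sites. Such a repeat with 5 bases between the half-sites was found in 32 of 32851 promoter windows, or 0.0974%, each of 300 bases with 250 before the start and 50 after it. Repeats with 1 or 2 bases between them were in 0.222% and 0.268% of windows and in none of the 11 windows of the members. The other members with a window were Cyp26b1, Aldh1a1, Aldh1a2, Rbp4 and Stra6, and their windows held no match. A match is a run of letters, and binding was not measured here. Any bearing of the match on the signals was not tested. Since Cyp26a1 is a known target of retinoic acid through its promoter, a repeat there was likely beforehand. Its rarity in other windows is therefore no new evidence.

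Signals are the MAS5 signal of a probe set on a linear scale, scaled by the authors on each array. Differences are Cox-1 KO minus wild-type on the log2 scale, tested with limma over the 26444 probe sets that reached a signal of 100 on 4 or more arrays. None of the 10 member probe sets passed an adjusted p under 0.05, which 0.0113% of all probe sets did. The methods' t-test after Benjamini-Hochberg adjustment passed none of them either, and 0.00756% of all. At an unadjusted p under 0.05 there were 9 of the 10, against 8.81% of all probe sets. Of these, 7 were higher, against 3.69% of all, and 2 were lower, against 5.12%. For 6 of the 10 the arrays of the genotypes did not overlap (4.41% of all), 4 higher (1.5% of all) and 2 lower (2.91% of all). The thresholds of the methods, a p up to 0.05 together with a 1.5-fold change of the mean signal, were passed by 5 (0.862% of all), 4 higher (0.416%) and 1 lower (0.446%). These same 5 probe sets, of 4 genes, are in the study's additional file, which was chosen on these arrays, and the members were chosen with such results known. The shares are therefore a description and no independent evidence. On the brightest probe set of each gene the median log2 fold change was 0.36, against -0.0094 over all genes.

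The arrays also differed in transcripts of yolk sac and fetal liver. Apoa1, an apolipoprotein of these tissues, had a signal of 10000 or more on 1 wild-type array (replicate 4) and 3 Cox-1 KO arrays (replicates 1, 3 and 4), called high in Apoa1 here. Of 21 listed markers of yolk sac and fetal liver, 18 were tested and all 18 had a higher mean log2 signal in Cox-1 KO uterus. Their summed signal was 4230 to 286845 in wild-type and 7255 to 455737 in Cox-1 KO uterus. Results are therefore given with and without the high arrays. Without them a single Cox-1 KO array remains, which the fit assumes to vary like the wild-type arrays. Ptgs1 had signals of 7048 to 10756 on the wild-type and 76 to 136 on the Cox-1 KO arrays, as the labels say. Of 8 stroma and receptor genes of the uterus and 8 smooth muscle genes, every gene was measured. The summed signals of stroma and receptor genes were 161349 to 169010 in wild-type and 156353 to 167969 in Cox-1 KO uterus. Those of smooth muscle genes were 260545 on wild-type replicate 1 and 290543 to 296210 on wild-type replicates 2 to 4. The Cox-1 KO arrays had 273510 to 296418. Such sums weigh the brightest genes most. By mean log2 signal each of these 2 lists had 3 genes higher and 5 lower in Cox-1 KO uterus. The median log2 fold changes were -0.064 for stroma and receptor genes and -0.051 for smooth muscle genes.

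**Figure D1:**
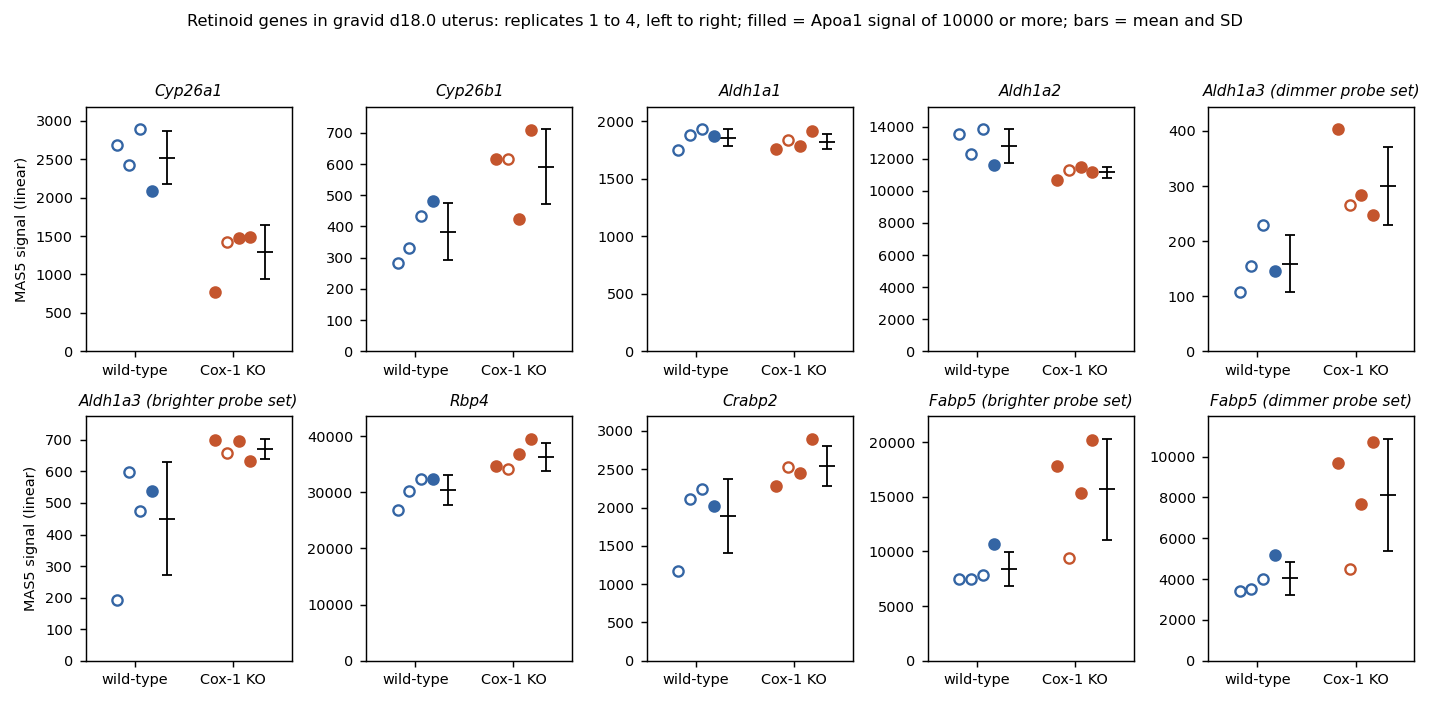
MAS5 signal (linear axis from 0) of the 10 member probe sets on each array. Points are single arrays in replicate order, filled where the Apoa1 signal was 10000 or more, and bars are the mean and SD (n = 4 each). For Cyp26a1 every Cox-1 KO array (773 to 1488) lies under every wild-type array (2090 to 2889), while Aldh1a1 stays between 1753 and 1932 on all arrays.

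Of the enzymes that break down retinoic acid, Cyp26a1 was lower and Cyp26b1 was higher in the Cox-1 KO uterus. Cyp26a1, a hydroxylase of retinoic acid, gave 2680, 2422, 2889 and 2090 as the signals of wild-type replicates 1 to 4. Cox-1 KO replicates 1 to 4 gave 773, 1425, 1479 and 1488. No Cox-1 KO array reached the lowest wild-type array, and Cox-1 KO replicate 1 was far under the others. The mean went from 2520 ± 345 to 1291 ± 347 (SD, n = 4 each), 1.95-fold lower. The log2 fold change was -1.0 (SE 0.196, limma adjusted p = 0.193). Its unadjusted p ranked 46 among all probe sets, the lowest rank of the 10. The difference was -0.90 without the arrays high in Apoa1, where Cox-1 KO replicate 2 at 1425 lay under 2422 to 2889 in wild-type. It was -0.81 among the high arrays, where 773 to 1488 lay under 2090 on wild-type replicate 4. With the Apoa1 class of the array as a term the difference was -0.85 (SE 0.206, limma adjusted p = 0.415). With Cox-1 KO replicate 1 left out it was -0.77, and it kept its sign under all 23 alternatives. Since the groups did not overlap, any set of arrays with both genotypes gives this sign. The same sign within both sets of arrays is therefore no further evidence.

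Cyp26b1, the hydroxylase that removes retinoic acid in many embryonic tissues, was dim on these arrays. Wild-type replicates 1 to 4 had signals of 284, 331, 435 and 483. Cox-1 KO replicates 1 to 4 had 616, 617, 424 and 709. The groups overlapped, since Cox-1 KO replicate 3 lay under the upper pair of wild-type arrays. The mean went from 383 ± 91.7 to 592 ± 120 (SD, n = 4 each), and the log2 fold change was 0.63 (SE 0.202, limma adjusted p = 0.506). Without the arrays high in Apoa1 the log2 fold change was 0.84, and among the high arrays it was 0.24, where the wild-type array at 483 lay within the Cox-1 KO range. A two-sided exact permutation test of the log2 signal, over the 70 ways to assign the arrays, gave p = 0.0857 for Cyp26b1 and p = 0.0286 for Cyp26a1, the smallest p that 4 against 4 allow. In whole uterine RNA, fewer cells of a type and less RNA per cell cannot be told apart.

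Of the enzymes that make retinoic acid, Aldh1a3 was higher, Aldh1a2 was slightly lower and Aldh1a1 was nearly the same in both groups. Aldh1a2, the enzyme that makes retinoic acid in mesoderm and in uterine stroma, had signals of 13556, 12284, 13836 and 11593 on wild-type replicates 1 to 4. On Cox-1 KO replicates 1 to 4 they were 10668, 11276, 11474 and 11187. The groups did not overlap, but the lowest wild-type array, replicate 4, was close to the highest Cox-1 KO array. The log2 fold change was -0.20 (SE 0.0632, limma adjusted p = 0.506, exact permutation p = 0.0286). It was -0.23 without the arrays high in Apoa1 and -0.062 among them, and with the Apoa1 class of the array as a term its interval was -0.30 to 0.0052, which includes no difference.

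Aldh1a3, the form found in secretory and sensory epithelia, has a brighter and a dimmer probe set, and both were higher in Cox-1 KO uterus. On the brighter, wild-type replicates 1 to 4 had 192, 598, 473 and 537. Cox-1 KO replicates 1 to 4 had 700, 659, 696 and 634. On the dimmer, the signals were 107, 154, 230 and 146 in wild-type, close to the filter, and 403, 265, 284 and 247 in Cox-1 KO uterus. On neither did the groups overlap, and wild-type replicate 1 was the lowest array on both. The log2 fold changes were 0.70 (SE 0.294, limma adjusted p = 0.552) on the brighter and 0.94 (SE 0.255, adjusted p = 0.416) on the dimmer. Without wild-type replicate 1 the brighter gave 0.33 and the dimmer 0.77. The dimmer probe set, which is in the additional file, gave 0.77 without the arrays high in Apoa1 and 1.06 among them, and the brighter gave 0.80 and 0.33.

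Aldh1a1, a broad retinaldehyde dehydrogenase, had signals of 1753, 1879, 1932 and 1873 on the wild-type arrays. On the Cox-1 KO arrays it had 1763, 1836, 1788 and 1913, so the groups overlapped throughout. Its log2 fold change was -0.027 with a 95% interval of -0.18 to 0.12 (limma adjusted p = 0.93), so a change beyond these bounds lies outside the interval. It was the only one of the 10 probe sets with an unadjusted p above 0.05.

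**Figure D2:**
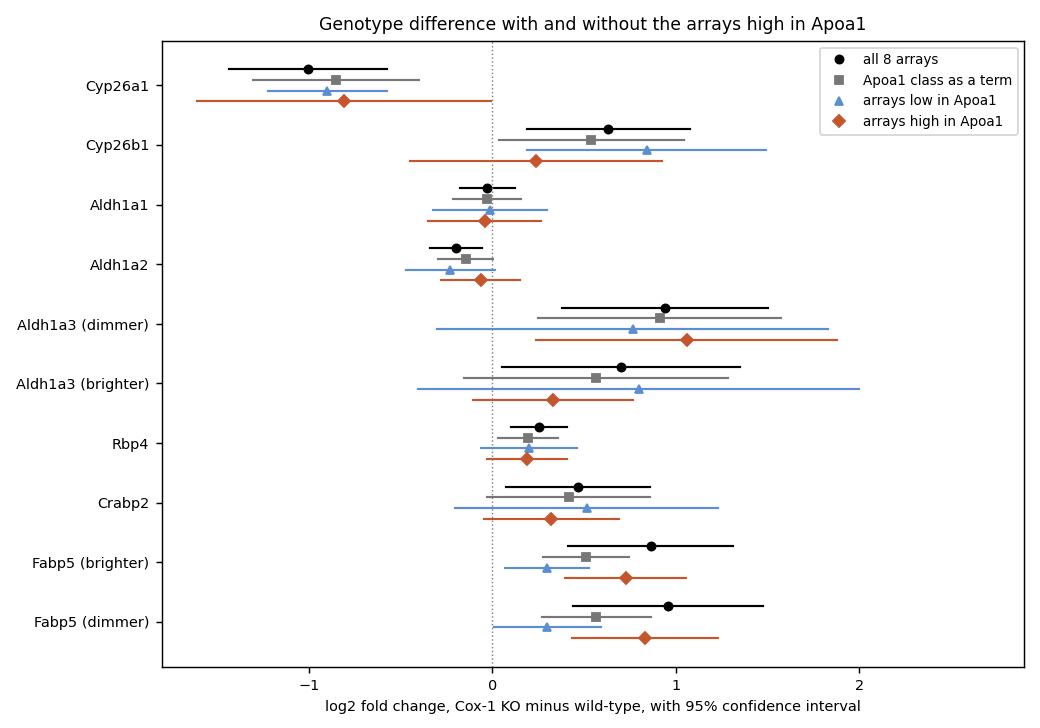
Log2 fold change (Cox-1 KO minus wild-type) of each member probe set with its 95% interval from limma, in 4 fits: all 8 arrays, all 8 with the Apoa1 class as a term, the arrays low in Apoa1 (3 wild-type, 1 Cox-1 KO) and those high in it (1 wild-type, 3 Cox-1 KO). Each probe set keeps its sign in all 4 fits, and the difference of Fabp5 on its brighter probe set runs from 0.30 to 0.86.

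The carriers Rbp4, Crabp2 and Fabp5 were higher in the Cox-1 KO uterus. Rbp4, the plasma carrier of retinol, had signals of 26827, 30136, 32440 and 32401 on wild-type replicates 1 to 4. They were 34613, 34145, 36878 and 39535 on Cox-1 KO replicates 1 to 4. Every Cox-1 KO array lay above every wild-type array, by a small margin, and the log2 fold change was 0.25 (SE 0.0697, limma adjusted p = 0.421, exact permutation p = 0.0286). Liver and yolk sac are known sources of RBP4. Its signal was 26827 to 34145 on the arrays low in Apoa1 and 32401 to 39535 on the high arrays, where Apoa1 itself went from 342 to 842 and from 50275 to 69038. The difference between genotypes was 0.20 without the high arrays and 0.19 among them. Ttr, the plasma partner of RBP4 and a marker of yolk sac and fetal liver, had 264 to 483 on the low arrays and 37669 to 55560 on the high arrays.

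Crabp2, the cytosolic protein that delivers retinoic acid to its receptors, had signals of 1171, 2116, 2238 and 2023 on wild-type replicates 1 to 4. On the Cox-1 KO arrays it had 2280, 2527, 2448 and 2899, in replicate order. The groups did not overlap, with wild-type replicate 1 far under all others and wild-type replicate 3 just under Cox-1 KO replicate 1. The log2 fold change was 0.47 (SE 0.179, limma adjusted p = 0.538, exact permutation p = 0.0286), and 0.25 without wild-type replicate 1. It was 0.51 without the arrays high in Apoa1 and 0.32 among them. With the Apoa1 class of the array as a term the interval was -0.026 to 0.86, which includes no difference. The methods' t-test gave an unadjusted p = 0.117.

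Fabp5, the epidermal fatty acid binding protein, had the largest ratio of Cox-1 KO to wild-type mean signal of the 8 genes on their brightest probe sets. The brighter of its probe sets had signals of 7509, 7522, 7838 and 10683 on wild-type replicates 1 to 4. Cox-1 KO replicates 1 to 4 were at 17788, 9384, 15382 and 20197. Cox-1 KO replicate 2, low in Apoa1, lay under wild-type replicate 4, which is high in it, so the groups overlapped. The mean went from 8388 ± 1538 to 15688 ± 4640 (SD, n = 4 each), 1.87-fold higher. The log2 fold change was 0.86 (SE 0.205, limma adjusted p = 0.309, exact permutation p = 0.0571). The dimmer probe set went from 4039 ± 812 to 8135 ± 2741 (log2 fold change 0.96, adjusted p = 0.343). Without Cox-1 KO replicate 2 both probe sets passed (limma adjusted p = 0.0433 for each), with log2 fold changes of 1.09 and 1.22. That array is the only Cox-1 KO array low in Apoa1. All Cox-1 KO arrays left in this fit were high in Apoa1, against wild-type replicate 4 alone, so genotype and Apoa1 are harder to tell apart in it.

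Fabp5 also differed with the Apoa1 class of the arrays, as the plot of Fabp5 against Apoa1 shows. On the brighter probe set every array low in Apoa1 was at 7509 to 9384 and every high array at 10683 to 20197. With the class as a term the log2 fold change was 0.51 (SE 0.107, limma adjusted p = 0.273). It was 0.30 without the high arrays, where 9384 lay above 7509 to 7838, and 0.73 among them, where 15382 to 20197 lay above 10683. Cox-1 KO replicate 4, the highest array for Fabp5, Crabp2, Rbp4 and Cyp26b1, also held transcripts of stratified epithelium. The summed signal of its 10 measured genes was 55759 there, 3875 to 7482 on the other Cox-1 KO arrays and 2015 to 5747 in wild-type, and all 10 had a higher mean log2 signal in Cox-1 KO uterus. Krt10 (37892) and Lor (10429), of the outer layers of such epithelium, made up most of the sum there. Without these genes it was 7438 there, 2938 to 6629 on the other Cox-1 KO arrays and 1157 to 4825 in wild-type. Without that array Fabp5 gave 0.72, Crabp2 0.40, Rbp4 0.21 and Cyp26b1 0.54. The summed signal of 6 adipocyte genes was 8469 to 17514 in wild-type and 13058 to 25770 in Cox-1 KO uterus, and of 15 genes of simple epithelium 192688 to 239204 and 231349 to 266480. Wild-type replicate 1 was the lowest array for Aldh1a3, Crabp2, Rbp4 and Cyp26b1, and by a narrow margin for Fabp5 and Aldh1a1. It had the lowest wild-type sum of 8 of the 11 marker lists, among them both epithelia, smooth muscle, mesothelium, macrophages and trophoblast. For 2 lists, adipocytes and endothelium, it had the highest wild-type sum. The part of these cells in the differences was not tested.

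**Figure D3:**
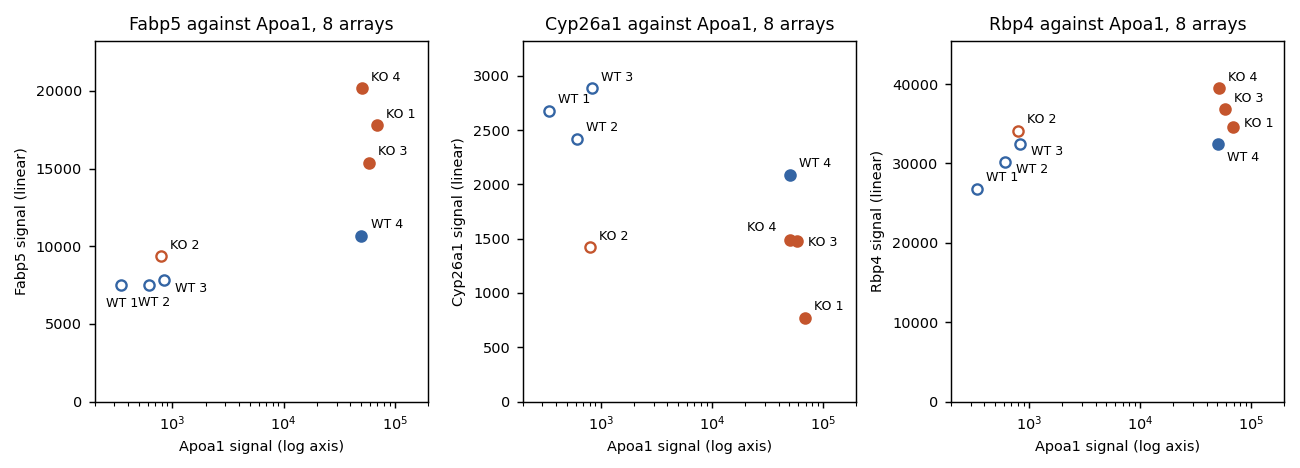
Signal of Fabp5 (brighter probe set), Cyp26a1 and Rbp4 (linear axes from 0) against the Apoa1 signal (log axis) on each of the 8 arrays; filled points have an Apoa1 signal of 10000 or more. Fabp5 is 10683 or more on the filled points and 9384 or less on the open ones. Cyp26a1 is 1488 or less on every Cox-1 KO array, high or low in Apoa1. Its lowest wild-type array, at 2090, is the filled one.

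The other genes of the pathway come from lists set down with earlier results of these arrays known. Of 62 distinct genes tested in them, 8 had an unadjusted p under 0.05 on their brightest probe set, 3 higher and 5 lower. That is 12.9%, against 8.81% of all probe sets (3.69% higher and 5.12% lower). With 5 to 21 genes tested in a list, the counts given for each list are a description and no result about that list. The 8.81% counts every probe set and not only the brightest of each gene, so the shares are not alike in kind. No gene of these lists passed an adjusted p under 0.05. Of 31 listed genes of retinol storage, transport and oxidation, 21 were tested, 13 higher and 8 lower (median log2 fold change 0.043), with 2 higher and 1 lower at an unadjusted p under 0.05. Rdh12, a retinaldehyde reductase of the retina, was the lower gene. Wild-type replicates 1 to 4 had signals of 4253, 4127, 3426 and 4202, and without overlap Cox-1 KO replicates 1 to 4 had 2525, 2938, 2791 and 2969. The log2 fold change was -0.51 (SE 0.0858, limma adjusted p = 0.103), and its other probe set gave -0.55 (adjusted p = 0.147). The higher genes were Lpl, a lipase that can free retinol from its esters, at 7101 ± 1226 and 9561 ± 1657 (SD, n = 4 each), and Adh7, an alcohol dehydrogenase of epithelia, at 302 ± 85.9 and 418 ± 41.3. Lpl divided by the Apoa1 class of the arrays, with 5691 to 7411 on the low arrays and 8656 to 10943 on the high arrays. Within the classes, Cox-1 KO replicate 2 at 7411 lay above 5691 to 7244 in wild-type, and 9104 to 10943 lay above wild-type replicate 4 at 8656. Rdh10, the main retinol dehydrogenase of the embryo, had a log2 fold change of 0.041, and Lrat, which esterifies retinol for storage, had -0.067. Both were looked up for their roles and not by the rule for named genes.

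Of 21 listed receptors and coregulators 16 were tested, 6 higher and 10 lower (median -0.042), with none higher and 1 lower at an unadjusted p under 0.05. That gene was Nr2f2, the orphan receptor COUP-TFII of uterine stroma, which retinoic acid can induce. It had signals of 2402 to 2711 in wild-type and 2005 to 2323 in Cox-1 KO uterus, with no overlap. The log2 fold change was -0.24 (SE 0.0746, limma adjusted p = 0.489). Its 5 probe sets ran from -0.24 to 0.38, with 4 lower and 1 dim probe set higher. Tbl1xr1 and Nr2f1, next by p, had 0.10 and 0.24. The other probe sets of Tbl1xr1 went in both directions, from -0.17 to 0.28. The retinoic acid receptors Rarg and Rarb gave -0.064 and -0.063, and the retinoid X receptors Rxra and Rxrb gave -0.086 and 0.028, all with overlapping groups.

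Of 29 listed genes known to respond to retinoic acid, 16 were tested, 6 higher and 10 lower (median -0.063), with none higher and 2 lower at an unadjusted p under 0.05. They were Nr2f2 again and Tgm2, a transglutaminase, at 24941 ± 1564 and 22584 ± 1091 (SD, n = 4 each; log2 fold change -0.14, limma adjusted p = 0.538). Meis2, a homeobox factor, had -0.14 (adjusted p = 0.591). The other probe sets of Tgm2 ran from -0.22 to -0.069, and those of Meis2 from -0.26 to -0.038. This list leaves out Cyp26a1, Cyp26b1 and Crabp2, which are targets as well as members.

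Of 14 other fatty acid and retinol binding proteins only 5 were tested, 4 higher and 1 lower (median 0.75), with 1 higher at an unadjusted p under 0.05. That gene was Rbp3, a retinoid carrier of the retina, near the filter at 127 ± 62.7 and 196 ± 14.2 (SD, n = 4 each). Fabp3, the heart form, followed the Apoa1 signal, with 335 to 412 on the arrays low in Apoa1 and 1109 to 1792 on the high arrays. So did Rbp2, the intestinal retinol carrier whose log2 fold change of 0.75 is the median of the list, with 336 to 661 and 1022 to 2440. Fabp4, the adipocyte form, had 9702 ± 2178 and 13226 ± 3879 (log2 fold change 0.43, limma adjusted p = 0.589). For PPARδ, the receptor that FABP5 can serve, 10 of 13 listed genes (Ppard and its targets) were tested, 5 higher and 5 lower (median -0.032), with none higher and 2 lower at an unadjusted p under 0.05. They were the carnitine transferase Cpt1a (log2 fold change -0.18) and the fatty acid receptor Cd36 (-0.16), and Angptl4, a lipase inhibitor, had -0.26 (adjusted p = 0.57). The other probe sets of Cpt1a gave -0.66 (limma adjusted p = 0.363, no overlap of the groups) and -0.27, and those of Cd36 gave -0.17 and -0.30.

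**Figure D4:**
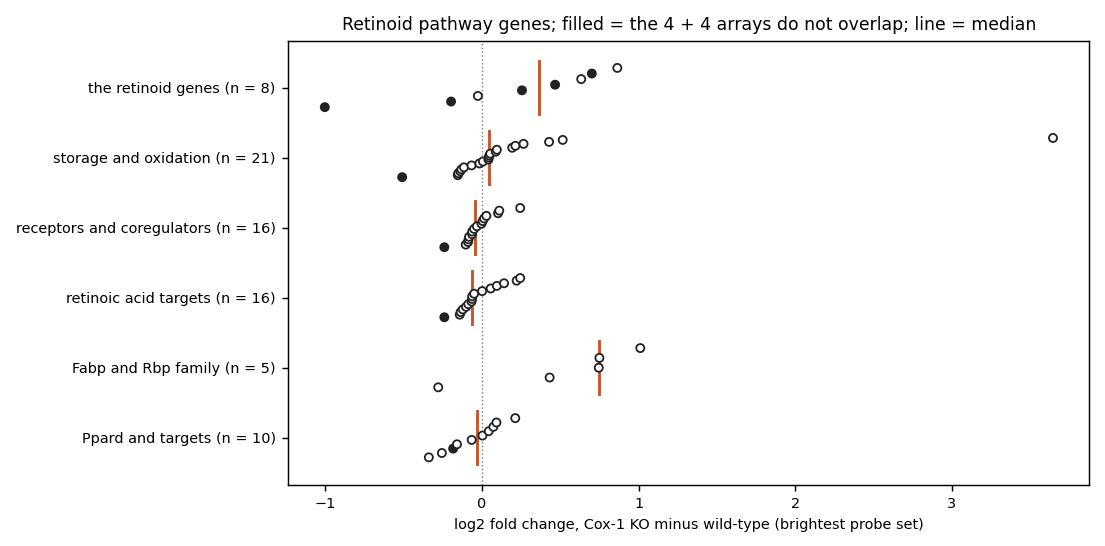
Log2 fold change (Cox-1 KO minus wild-type, brightest probe set) of each tested gene in the 8 retinoid genes and 5 further lists; filled points are genes whose wild-type and Cox-1 KO arrays do not overlap, and lines are medians. The point at 3.64 is Ttr, a yolk sac and fetal liver marker, and the medians of the receptors, the retinoic acid targets and the PPARδ genes lie between -0.063 and -0.032.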

How the data were processed

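RNA of 8 gravid d18.0 uteri was measured on 1-colour arrays. The authors computed the deposited signal intensity with MAS5 and brought each array to an average intensity of 1000 by scaling; it is given in whole numbers, without detection calls. How the probe sets were chosen is not given in the sources used here. The software was limma 3.58.1 in R 4.3.3, with Python 3.11.15. After values under 1 were raised to 1, log2 was taken, 60 array controls were left out, and no further normalization was applied, which could leave a shift of the array (the median log2 fold change was -0.027). limma was run with a trend on mean signal and Benjamini-Hochberg adjustment, and was tested on simulated data. Arrays correlated at 0.944 to 0.982. Genes were named through the platform annotation, and 23521 of 23579 single symbols matched RefSeq by gene ID; Ptgs1 was named through the study's additional file. The members and lists were chosen with earlier results of these data known. Named genes are the members, Ptgs1, Apoa1 and the 3 genes of each list with the smallest p on their brightest probe set, with exceptions said in the text. Alternatives were log2(signal + 32), a floor at a signal of 100, other filters, quantile and median normalization, other variance models, a replicate block, each array left out, the methods' t-test with unequal variances, and the fits by Apoa1. Replicates are separate mice, and their number limits the precision.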

Additional observations from a re-analysis of the deposited data

Results flagged for a closer look

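Chance alone marks about 1 in 20 groups as holding an array far from the rest, and 20 groups of 4 arrays were examined on log2 signal. In 3 the gap to the nearest array took more than 0.829 of the range of the group. Cyp26a1 was 773 on Cox-1 KO replicate 1, against 1425 to 1488 on the other Cox-1 KO arrays. Crabp2 was 1171 on wild-type replicate 1, while the other wild-type arrays had 2023 to 2238. Fabp5 was 10683 on wild-type replicate 4, on its brighter probe set, against 7509 to 7838, and this is the only wild-type array high in Apoa1.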

How the results depend on the processing

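All 10 member probe sets kept the sign of their log2 fold change under each of 23 alternatives. Many of these could not change it. Other filters, the fit without a trend, the robust fit, the replicate block and the methods' t-test left the fold change itself as it was. Where the groups did not overlap, leaving out arrays could not reverse it. None of the members but Fabp5 passed an adjusted p under 0.05 in any alternative. The number of members past it was 0, and 0 to 2 when each array was left out in turn. The 2 were the Fabp5 probe sets without Cox-1 KO replicate 2, the only Cox-1 KO array low in Apoa1. The 9 members with an unadjusted p under 0.05 became 5 with the log2 Apoa1 signal as a covariate, 4 without the arrays high in Apoa1, 4 with only those arrays and 5 by the methods' t-test with its ratio; without any single array they were 7 to 9. The 3 probe sets past an adjusted p under 0.05 of all 26444 became 12 with a floor at a signal of 100, 10 when 32 was added to the signal, 6 with a robust fit, 18 with array weights, 11 with median centring, 8 with the Apoa1 covariate, 6 without the arrays high in Apoa1 and 15 with only those, and 2 to 25 when each array was left out. Same-numbered arrays deviated from their group means with correlations of -0.25, 0.22, -0.18 and 0.17. Only for replicate 2 was this above the best correlation with another number. So few values cannot settle whether the numbers pair the arrays. The methods say that samples were processed in balanced groups, which are not named. A replicate block gave 0, 9 and 3 for these counts. The cause of these moves was not tested.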
